A study of Mus musculus with 12 samples.

Results

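Small nucleolar RNAs (snoRNAs) are short RNAs of the nucleolus, the part of the nucleus in which ribosomal RNA is made. C/D box snoRNAs, whose gene symbols start with Snord, pair with ribosomal RNA and, bound by fibrillarin, Nop56, Nop58 and Snu13, guide the methylation of ribose. H/ACA box snoRNAs, with symbols that start with Snora, guide the conversion of uridine to pseudouridine with dyskerin (Dkc1), Gar1, Nhp2 and Nop10. Most snoRNAs of mammals lie in introns of a host gene, often one for a ribosomal protein or a non-coding RNA, and are trimmed out of the spliced intron.

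The snoRNA genes examined here were all genes with a Snord or Snora symbol followed by a number that the array's annotation pairs alone with a transcript cluster, the probe group that stands for 1 transcript. There were 73 of them, 47 C/D box and 26 H/ACA box genes, of 22180 genes with such a cluster. They came from 75 clusters, and the cluster with the highest mean represented Snora33 and Snora19, which had 2 each (for Snora19 with identical values). A further 43 clusters listed a snoRNA together with other symbols and were left out, 16 of them shared by Snord116l1 and Snord116l2 of the imprinted chromosome region. No snoRNA of the Snord116 or Snord115 type was among the 73, so that none is described.

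Hippocampal RNA of 12 male mice was hybridised to 1 array each, with 3 mice in each of 4 groups that combine genotype and diet. Wild‐type (WT) mice and homozygous App knock‐in mice (App[NL-F/NL-F]), whose own App gene, under its own promoter, codes for humanized Aβ and carries the Swedish and Iberian mutations, received a regular diet (RD) or a high‐fat diet (HFD). All mice were on the C57BL/6J background and 18 months old, and feeding had begun at 6 months and lasted 12 months. The RD‐fed mice are labelled as non-diabetic and the HFD‐fed mice as diabetic, so diet and diabetes cannot be told apart. Values are log2 expression, and an increase of 1 is a doubling.

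The arrays correlated with each other at r = 0.982 to 0.988 over 41345 clusters, and no array stood apart. The median diet difference over all clusters was -0.00 on the log2 scale. Choroid plexus markers varied between mice within all 4 groups, and most widely within the 3 other than WT RD, as described below with Snora35. The RNA is of whole tissue, so that fewer cells of a type and less RNA per cell cannot be told apart.

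The snoRNA genes were well represented on the arrays. Of the 73 genes, 45 (61.6%) had a mean above an intensity of 100, against 23.9% of all clusters. These 45 were 33 of the 47 C/D box and 12 of the 26 H/ACA box genes. The median of the mean log2 values was 7.61 for C/D box genes, with a range of 3.52 to 11.61, and 6.40 for H/ACA box genes, with a range of 3.68 to 11.83. Levels of different probes cannot be set against each other as amounts of RNA, so these values show only how far each gene stood above the dim end of the array. The annotated RNAs were 48 to 221 bases long, with medians of 68 bases for C/D box and 118.5 bases for H/ACA box genes.

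The brightest 8 were Snora33, Snord99, Snord22, Snord55, Snord47, Snord16a, Snord82 and Snord110, with means from 11.83 for Snora33 to 10.60 for Snord110. Snord22 (U22 RNA) is known from Xenopus to be needed for the maturation of 18S ribosomal RNA. Among genes above an intensity of 100, Snora33 had the smallest spread between mice of a group, with an SD of 0.05, followed by Snord22, Snord99, Snord110 and Snord49a with SDs of 0.05 to 0.07. The widest spreads were those of Snora30 (0.27), Snord90 (0.20), Snord23 (0.18), Snord111 (0.18) and Snord13 (0.18). The median spread of the 45 genes was 0.12, against 0.09 for all 9878 clusters of that brightness.

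The comparison of diets, which asks how long-term HFD feeding bears on hippocampal RNA, showed higher mean levels in HFD‐fed mice for nearly all snoRNA genes. Averaged over both genotypes, 68 of 73 were higher with HFD, where 49.6% of all clusters were. The median difference was 0.19, or 1.14-fold. C/D box genes were higher in 45 of 47 cases with a median of 0.22 (1.16-fold), and H/ACA box genes in 23 of 26 with a median of 0.09 (1.07-fold). In the limma fit across all clusters, 39 snoRNA genes had an unadjusted p under 0.05 with higher levels in HFD‐fed mice, where 2.66% of all clusters did. None had such a p with lower levels, where 2.3% of all clusters did. None passed the Benjamini-Hochberg adjusted threshold of 0.05, which 0% of all clusters passed, and the smallest adjusted p of the snoRNA genes was 0.869. No single snoRNA gene is therefore called as changed, and the rest describes the size and direction of the differences.

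Averaged over both genotypes, the difference was present at both levels of brightness but smaller among dim genes. All 45 genes above an intensity of 100 were higher with HFD, by 0.04 to 0.37 with a median of 0.22, whereas all 9878 clusters of that brightness had a median of 0.00. Of the 28 dimmer snoRNA genes 23 were higher, with a median of 0.10. In WT mice alone the medians of brighter and dimmer genes were close, at 0.18 and 0.17. In App mice alone they were 0.25 and 0.14. Over both genotypes the 33 brighter C/D box genes had a median of 0.23 and the 12 brighter H/ACA box genes a median of 0.11. Whether both classes differ in their response was not tested, since genes are not replicates.

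The same direction was seen mouse by mouse. With each gene centred on its mean over all mice, the median over the 47 C/D box genes was -0.07, -0.08 and -0.11 in the 3 WT RD mice and -0.14, -0.15 and -0.08 in the 3 App RD mice. In HFD‐fed mice it was 0.05, 0.17 and 0.08 in WT and 0.03, 0.18 and 0.13 in App. Every HFD‐fed mouse thus stood above every RD‐fed mouse. The group means were -0.09 ± 0.02 for WT RD, 0.10 ± 0.06 for WT HFD, -0.12 ± 0.04 for App RD and 0.12 ± 0.08 for App HFD (SD, n = 3).

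For the 26 H/ACA box genes the medians were -0.08, -0.02 and -0.08 in WT RD mice, -0.01, 0.09 and 0.03 in WT HFD mice, -0.17, -0.09 and 0.04 in App RD mice and 0.02, 0.12 and 0.05 in App HFD mice. Here the diets overlapped, through 1 App RD mouse with 0.04 and 1 WT HFD mouse with -0.01. The median H/ACA box diet difference of 0.09 was 0.14 without that App RD mouse (replicate 3).

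**Figure D1:**
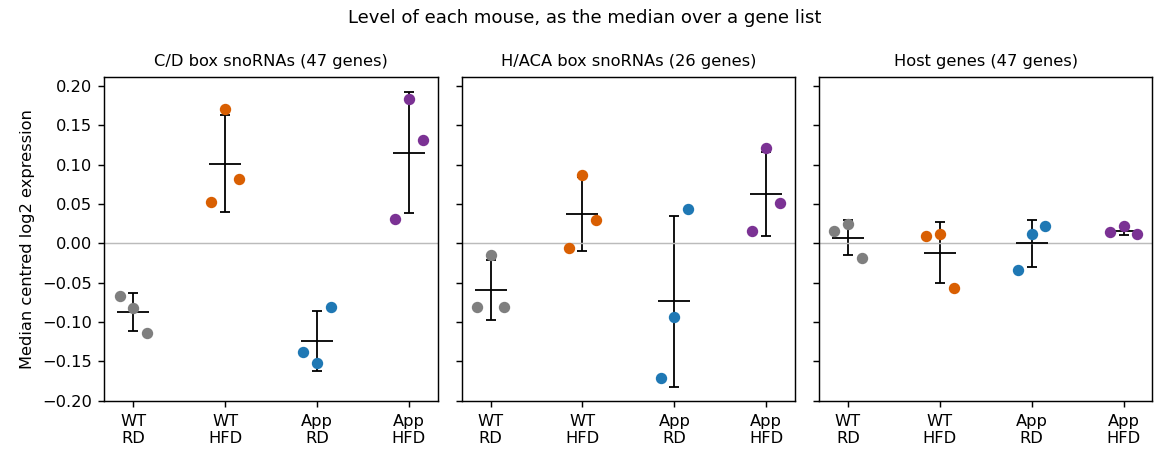
Median over a gene list of log2 expression centred per gene (y axis, log2) in each mouse (points) of the 4 groups (x axis), with the group mean and SD (black, n = 3), for the C/D box genes, the H/ACA box genes and the measured host genes. For C/D box genes the 6 HFD-fed mice lie between 0.03 and 0.18 and the 6 RD-fed mice between -0.15 and -0.07, while the host genes stay between -0.06 and 0.02 in every mouse.

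In 12 snoRNA genes each of the 6 HFD‐fed mice was above each of the 6 RD‐fed mice, which was the case for 0.169% of all clusters. No snoRNA gene showed the opposite complete separation, which 0.106% of all clusters did. The 12 were the C/D box genes Snord104, Snord110, Snord22, Snord35a, Snord49a, Snord55, Snord61, Snord65, Snord66, Snord71 and Snord99 and the H/ACA box gene Snora33.

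Snord104, in an intron of the non-coding RNA gene Gm36220, had the smallest p of the diet comparison. It was 9.32, 9.37 and 9.30 in WT RD mice, 9.48, 9.71 and 9.64 in WT HFD mice, 9.23, 9.31 and 9.43 in App RD mice and 9.60, 9.75 and 9.72 in App HFD mice. The lowest HFD‐fed mouse, in the WT group, was 0.05 above the highest RD‐fed mouse, in the App group. The difference was 0.32 (SE 0.06, unadjusted p = 0.00034, adjusted p = 0.869 in limma).

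Snord61, which lies within Rbmx, the X-linked gene of an RNA-binding protein that acts in splicing, was 10.37, 10.40 and 10.25 in WT RD mice and 10.52, 10.73 and 10.59 in WT HFD mice. In App mice it was 10.21, 10.25 and 10.25 with RD and 10.44, 10.59 and 10.57 with HFD. All HFD‐fed mice stood above all RD‐fed mice, by 0.29 on average (SE 0.06, adjusted p = 0.869 in limma).

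Snord49a, with Snord49b and Snord65, lies in the non-coding RNA gene 2410006H16Rik. It was 10.38, 10.41 and 10.38 in WT RD mice, 10.49, 10.64 and 10.70 in WT HFD mice, 10.15, 10.25 and 10.22 in App RD mice and 10.46, 10.56 and 10.50 in App HFD mice. The HFD‐fed mice of each genotype stood above their RD‐fed mates, and at each diet the App mean was below the WT mean. The diet difference was 0.26 for Snord49a (SE 0.05), 0.24 for Snord49b (SE 0.07) and 0.23 for Snord65 (SE 0.05).

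Snord35a is an intronic snoRNA of Rpl13a, the gene of a protein of the large ribosomal subunit. The snoRNAs of this gene are known from cultured cells for a part in the response to excess saturated fatty acids. Snord35a was 8.36, 8.27 and 8.19 in WT RD mice, 8.45, 8.54 and 8.53 in WT HFD mice, 8.36, 8.29 and 8.36 in App RD mice and 8.56, 8.69 and 8.55 in App HFD mice. The groups separated by diet, with a difference of 0.25 (SE 0.05, adjusted p = 0.920 in limma).

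Among H/ACA box genes, Snora33, within the ribosomal protein gene Rps12, was the one with complete separation. It was 11.70, 11.70 and 11.73 in WT RD mice, 11.92, 11.98 and 11.86 in WT HFD mice, 11.69, 11.72 and 11.79 in App RD mice and 11.99, 11.99 and 11.89 in App HFD mice. The HFD‐fed mice of both genotypes lay close together above the RD‐fed mice, with a difference of 0.22 (SE 0.05, adjusted p = 0.920 in limma). The second Snora33 cluster, with a mean of 5.14, ran from 4.62 to 5.31 in RD‐fed and from 5.09 to 5.39 in HFD‐fed mice, so that the diets overlapped there.

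The other H/ACA box genes with an unadjusted p under 0.05 were Snora16a, Snora7a, Snora78 and Snora73b, with diet differences of 0.25, 0.23, 0.13 and 0.16. Snora73b is a form of the U17 RNA, which acts in the cleavage that frees 18S ribosomal RNA rather than in modification. The 5 genes with a mean below 0 in this comparison were Snora61, Snord43, Snora47, Snora35 and Snord85. Snora61 differed by -0.10 (SE 0.07) and Snord43 by -0.09 (SE 0.10), neither with an unadjusted p under 0.05.

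Snord66 lies within Eif4g1, the gene of a scaffold protein of translation initiation, and is a snoRNA that the study itself picked from these arrays for App mice on HFD, so that its difference there is a description. The study lists Snord66 as lower with HFD in App mice, the opposite of the direction in the deposited values. The reason for this was not found, and the values here are those deposited. Snord66 was 7.60, 7.68 and 7.78 in WT RD mice, 7.80, 8.11 and 7.98 in WT HFD mice, 7.36, 7.36 and 7.79 in App RD mice and 7.81, 8.08 and 8.02 in App HFD mice. Over both genotypes the diets were separated by a narrow margin, between 1 App RD mouse with 7.79 and 1 WT HFD mouse with 7.80. The group means were 7.69 ± 0.09 for WT RD, 7.96 ± 0.16 for WT HFD, 7.50 ± 0.25 for App RD and 7.97 ± 0.14 for App HFD (SD, n = 3).

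In the deposited values HFD‐fed App mice exceeded RD‐fed App mice in Snord66 by 0.47, or 1.38-fold, with a 95% interval of 0.17 to 0.77 (adjusted p = 0.999 in limma). An exact two-sided permutation test gave p = 0.1, the smallest that 3 mice against 3 allow. Neither this test nor the intervals given here take account of the choice of the gene on these arrays. In WT mice the difference was 0.28 with an interval of -0.02 to 0.58, so that both genotypes had higher means with HFD. The diet effect over both genotypes was 0.37, the largest of the 73 genes, with an interval of 0.16 to 0.59. The interaction was 0.19 with an interval of -0.23 to 0.62, so that a genotype difference in the effect of HFD was neither shown nor bounded closely.

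**Figure D2:**
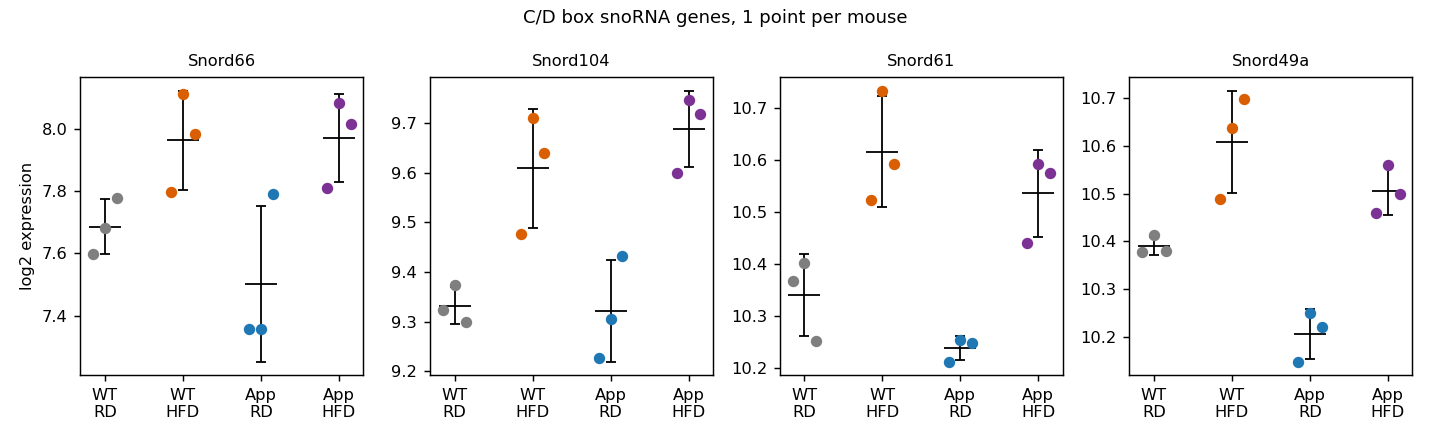
Log2 expression (y axis) of Snord66, Snord104, Snord61 and Snord49a in each mouse (points) of the 4 groups (x axis), with the group mean and SD (black, n = 3). In each panel the 6 HFD-fed mice lie above the 6 RD-fed mice, by the narrowest margin for Snord66.

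The profile of Snord66 over the 12 mice was most like that of other C/D box genes. Among snoRNA genes Pearson's r was 0.96 for Snord16a, 0.92 for Snord17, 0.91 for Snord73b and 0.90 for both Snord104 and Snord35b. Among all other genes with a single symbol the nearest were Rplp1 (0.95), which encodes a protein of the ribosomal stalk, Arhgap17 (0.89), 2810025M15Rik (0.89), Tbcb (0.89) and Psmb5 (0.87). These values were picked as the highest of many and include the difference between diets, so they are given without a test. Over all pairs of snoRNA genes the median r was 0.34, and it was 0.15 once each gene's group means were removed.

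In WT mice alone 64 of 73 snoRNA genes had a higher mean with HFD, where 49.6% of all clusters did, with a median difference of 0.18. Of these, 13 had an unadjusted p under 0.05 (2.95% of all clusters), against 0 in the lower direction (2.27% of all clusters). The 3 WT HFD mice lay above the 3 WT RD mice in 23 genes (5.3% of all clusters) and below them in 1, Snord43 (5.03% of all clusters). The adjusted threshold was passed by 0 genes (0% of all clusters), with a smallest adjusted p of 0.892. Snord55 and Snord61 had the smallest p, each with a difference of 0.28 (SE 0.08 in both). The count of 13 was 8 without WT HFD mouse 2 and 18 without WT HFD mouse 1.

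In App mice alone 62 of 73 were higher with HFD, where 49.6% of all clusters were, with a median difference of 0.23. An unadjusted p under 0.05 was found for 35 genes in the higher direction (2.34% of all clusters) and for 0 in the lower (2.28% of all clusters). The 3 App HFD mice lay above the 3 App RD mice in 33 genes (4.98% of all clusters) and below them in 0 (4.64% of all clusters), and 0 passed the adjusted threshold (0% of all clusters). Of the 35 genes 30 were C/D box genes. The count was 23 without App RD mouse 2.

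Snord1b, within the non-coding RNA gene Snhg16, had the second smallest p in App mice after Snord104. In App mice it was 7.38, 7.27 and 7.26 with RD and 7.74, 7.79 and 7.66 with HFD, and in WT mice 7.22, 7.49 and 7.40 with RD and 7.44, 7.76 and 7.49 with HFD. The App groups stood well apart, with a difference of 0.43 (SE 0.10), whereas the WT groups overlapped. For Snord104 the App difference was 0.37 (SE 0.09). The members with the smallest p in the lower direction were Snord37, at -0.20 (SE 0.15), and Snora31, at -0.18 (SE 0.15), neither past the threshold before adjustment.

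WT and App mice share no animals in these comparisons. The mean was higher with HFD in both genotypes for 56 of the 73 genes, where 24.5% of all clusters were, and lower in both for 3, where 25.4% of all clusters were. The 56 comprised 41 of the 47 C/D box and 15 of the 26 H/ACA box genes. The size of the difference in one genotype did not track that in the other, with r = -0.11 across the 73 genes, which are not independent replicates. For 39 genes the highest of the 4 group means was that of App HFD and for 27 that of WT HFD, leaving 7 with the highest mean in an RD group. The matching shares of all clusters were not counted, so these 3 counts are a description only.

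**Figure D3:**
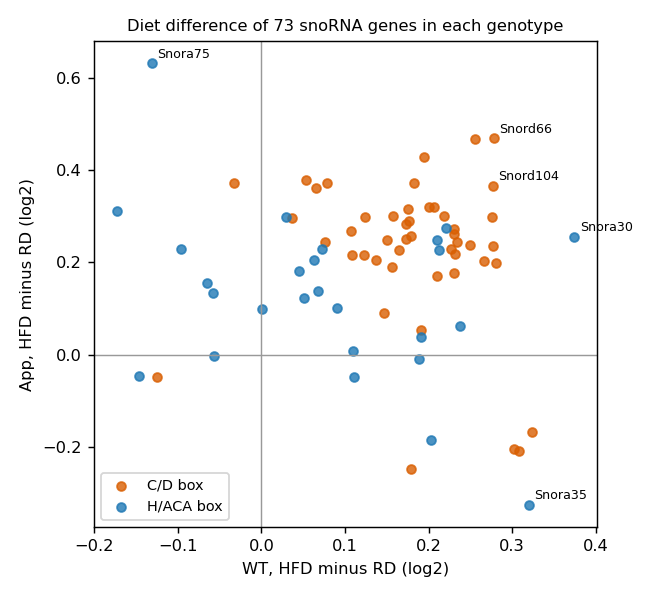
Difference between HFD-fed and RD-fed mice in log2 expression for each of the 73 snoRNA genes, in WT mice (x axis) and App mice (y axis), coloured by class. Of the points, 56 lie above 0 on both axes, 41 of them C/D box genes, and 3 below 0 on both.

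Diet differences of snoRNA genes that share a host are given side by side, without a test between them. There were 11 hosts with several snoRNA genes, 25 in all. The non-coding RNA gene Snhg12 holds 4, of which Snora16a (0.25, SE 0.05) and Snord99 (0.20, SE 0.05) were higher with HFD before adjustment, while Snora44 (0.06, SE 0.08) and Snora61 (-0.10, SE 0.07) did not pass the threshold. Snord73a and Snord73b of Rps3a1 differed by 0.23 (SE 0.09) and 0.28 (SE 0.08). Within Ncl, the nucleolin gene, Snord82 differed by 0.17 (SE 0.06) and the dim Snora75 by 0.25 (SE 0.15).

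The host genes, as measured by clusters with their symbols, showed no such shift. By the RefSeq annotation (GRCm38.p6), 70 of the 73 snoRNA genes lie within another gene, and Snord13, Snord118 and Snord89 do not. A cluster with a host's symbol was measured for 60 of them, giving 61 pairs with 47 hosts. It was matched by symbol without a check of its position, so that it may not stand for the host's own locus. Genes spanning a snoRNA on either strand were taken as hosts. For at least Snord71, Snord91a and Snora78 the spanning genes lie on opposite strands, so that not all of them can be the true host. For Snord87 both spanning genes, Mcmdc2 and Snhg6, were measured, and both pairs are counted without a comparison of their strands. The median diet difference was 0.18 over the 60 snoRNA genes and 0.01 over the 47 hosts, each counted once. In 54 of the 61 pairs the difference of the snoRNA was larger than that of its host. Of the 47 hosts 27 were higher with HFD and 20 lower, and none had an unadjusted p under 0.05 in either direction. In WT mice the snoRNA exceeded its host in 51 pairs and in App mice in 50. Across pairs the differences of snoRNA and host had r = -0.07.

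Rps12 differed by 0.03 (SE 0.05) beside 0.22 for Snora33, Rbmx by 0.04 (SE 0.05) beside 0.29 for Snord61, and 2410006H16Rik by -0.01 (SE 0.08) beside 0.26 for Snord49a. Snhg12 differed by -0.09 (SE 0.08) beside 0.25 for Snora16a. The median diet difference was 0.20 over the 20 snoRNA genes within any non-coding gene and 0.18 over the 50 within protein-coding genes only. Strand was not considered in this split. The 3 genes outside any other gene were also higher with HFD, by 0.22 (SE 0.10) for Snord13, 0.20 (SE 0.13) for Snord118 and 0.16 (SE 0.07) for Snord89. Snord118 (U8 RNA) and Snord13 (U13 RNA) serve the processing of ribosomal RNA and have promoters of their own.

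**Figure D4:**
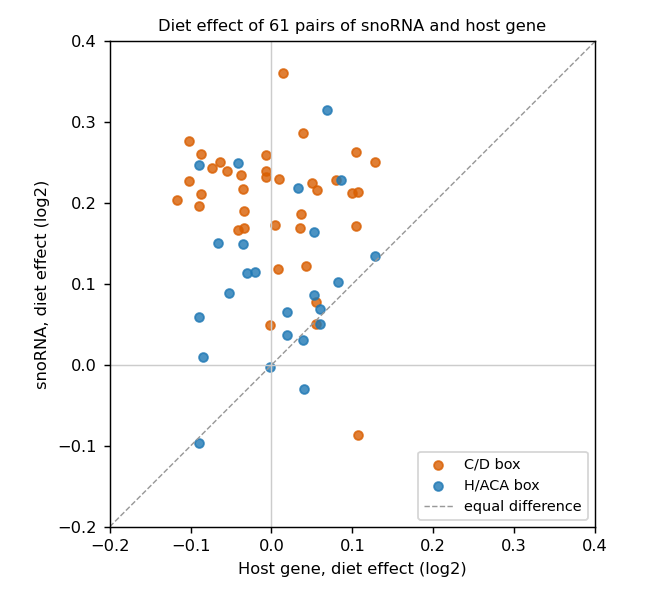
Diet effect in log2 expression of the host gene (x axis) and of the snoRNA within it (y axis) for 61 pairs, coloured by class, with the line of equal difference (dashed). In 54 pairs the snoRNA lies above the line, and the host genes are spread around 0.

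Host genes of snoRNAs often belong to the class whose transcripts start at a C followed by a run of pyrimidines, the 5′ terminal oligopyrimidine tract of many genes of the translation machinery. The start regions of 6 hosts are shown as examples that hold such a run and a snoRNA described above, and that of Htr2c, the host of Snora35, because the mean diet difference of that snoRNA was near 0. Each runs from 30 bases before to 20 bases after the start of the transcript, as given by RefSeq on GRCm38.p6. Capitals mark a C followed by at least 4 pyrimidines (C or T), searched on the transcribed strand from 10 bases before to 15 bases after the start. Marking stops at the end of this window, so that the runs of Rpl13a and Rps12 go on beyond their capitals.
Gm36220 (Snord104), chr11:106500885-106500934, plus strand: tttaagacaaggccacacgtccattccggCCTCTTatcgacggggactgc
2410006H16Rik (Snord49a, Snord49b, Snord65), chr11:62602847-62602896, plus strand: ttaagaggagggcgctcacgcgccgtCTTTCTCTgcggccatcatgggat
Snhg12 (Snora16a, Snora44, Snora61, Snord99), chr4:132308648-132308697, plus strand: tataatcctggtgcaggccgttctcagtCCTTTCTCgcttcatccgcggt
Rpl13a (Snord35a), chr7:45128726-45128775, minus strand: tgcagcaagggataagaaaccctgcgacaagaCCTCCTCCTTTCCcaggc
Rps12 (Snora33), chr10:23787190-23787239, minus strand: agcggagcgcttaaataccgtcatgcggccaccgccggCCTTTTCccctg
Eif4g1 (Snord66), chr16:20672697-20672746, plus strand: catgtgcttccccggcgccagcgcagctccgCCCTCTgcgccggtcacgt
Htr2c (Snora35), chrX:146962483-146962532, plus strand: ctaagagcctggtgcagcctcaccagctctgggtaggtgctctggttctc
Such a run was found in 21 of the 48 hosts with a start region (43.8%) and in 30.8% of 27025 genes. None was found in this window for Rbmx, Nop56 and Snhg1, the hosts of Snord61, Snord110 and Snord22, which were also completely separated by diet. Conversely, Zbed3, the host of Snora47, and Snhg12, the host of Snora61, held a run, while both snoRNAs had a lower mean with HFD. A match is a description of the letters and not a proven start site.

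The genes that make snoRNAs work showed no common shift with diet. Of the 4 core proteins of C/D box particles 3 were measured, Nop56 (0.05, SE 0.07), Nop58 (-0.03, SE 0.05) and Snu13 (-0.01, SE 0.04). For the 4 core proteins of H/ACA box particles the median was 0.01, with Gar1 at -0.14 (SE 0.07, unadjusted p = 0.04999, adjusted p = 0.995 in limma) and Nop10 at 0.07 (SE 0.05). The 12 genes of assembly and processing had a median of -0.02, with Nolc1, a chaperone of snoRNA particles, at -0.15 (SE 0.06) and the only one with an unadjusted p under 0.05.

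Other small nuclear RNAs, listed after the diet difference had been seen, also had higher means with HFD over both genotypes. The 5 measured scaRNAs, which guide modification of spliceosomal RNA in the Cajal body, were all higher, with a median of 0.11 and none with an unadjusted p under 0.05. All 10 spliceosomal, Y, 7SK, U3, RNase P and similar RNAs were higher, with a median of 0.09. This median was 0.04 in WT and 0.14 in App mice. Their summed intensity overlapped in WT mice, at 18324 to 19516 with RD and 18257 to 19454 with HFD. In App mice it was 18131 to 18666 with RD and 19186 to 20385 with HFD. The largest among them were Rnu5g, a dim U5 RNA cluster, at 0.48 (SE 0.17), and Rnu3a, the U3 RNA, itself a C/D box RNA of ribosomal RNA processing, at 0.38 (SE 0.10). The Rnu5g value came mainly from WT mice, where the difference was 0.93, with an interaction of -0.89. The 478 microRNA genes had a median of 0.01, with 248 higher and 230 lower.

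Some cell type markers moved with diet as well, and their part in the snoRNA difference was not tested. All 5 measured oligodendrocyte markers were higher with HFD, with medians of 0.12 in WT and 0.23 in App mice, and their summed intensity ran from 2560 to 2741 in WT RD, 2684 to 2806 in WT HFD, 2443 to 3120 in App RD and 3090 to 3298 in App HFD mice. Of 7 mural cell markers 6 were higher, with medians of 0.31 in WT and 0.04 in App mice. Their summed intensity was 1073 to 1150 in WT RD, 1203 to 1390 in WT HFD, 1140 to 1307 in App RD and 1182 to 1391 in App HFD mice. All 7 endothelial markers were higher in WT mice, by a median of 0.24, but 3 of 7 were in App mice, where the median was -0.01. Summed endothelial intensity was 703 to 809 in WT RD, 767 to 1020 in WT HFD, 833 to 840 in App RD and 796 to 872 in App HFD mice. Of 9 microglial markers 8 were higher, with a median of 0.06 over both genotypes. In the limma fit 4 of them had an unadjusted p under 0.05 in the higher direction (2.66% of all clusters). Summed microglial intensity was 1381 to 1507 in WT RD and 1599 to 1618 in WT HFD mice, without overlap. It was 1624 to 1749 in App RD and 1684 to 1907 in App HFD mice, where the diets overlapped. Neuronal markers were lower in 7 of 8 cases in WT and 6 of 8 in App mice, with medians of -0.06 and -0.03. Their summed intensity was 17197 to 17633 in WT RD, 16599 to 16994 in WT HFD, 17284 to 17956 in App RD and 17083 to 17473 in App HFD mice, so that the diets did not overlap in WT mice. Nefh, a neurofilament gene, had a diet difference of -0.19 (SE 0.05, unadjusted p = 0.0038, adjusted p = 0.920 in limma). The 3 dentate granule cell markers were all higher in App HFD than in App RD mice, with a median of 0.24, and 1 of 3 was higher with HFD in WT mice, where the median was -0.12. Their summed intensity was 958 to 985 in WT RD, 920 to 1049 in WT HFD, 900 to 997 in App RD and 974 to 1158 in App HFD mice.

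The comparison of genotypes gave smaller differences, whose prevailing direction was not the same at both diets. The median App minus WT difference was -0.06 with RD and 0.04 with HFD. In RD‐fed mice 21 of 73 snoRNA genes were higher in App than in WT mice, where 49.3% of all clusters were, and in HFD‐fed mice 45 were, where 48.6% of all clusters were. With RD 37 of the 47 C/D box and 15 of the 26 H/ACA box genes were lower in App mice. With RD 4 genes had an unadjusted p under 0.05 in the higher direction (3.06% of all clusters) and 1 in the lower (3.12%). With HFD 3 did in the higher direction (2.43% of all clusters) and 0 in the lower (2.89%). Over both diets 31 were higher, where 48.4% of all clusters were, with 3 at an unadjusted p under 0.05 in the higher direction (2.92%) and 2 in the lower (3.55%). None passed the adjusted threshold with RD (0% of all clusters), with HFD (0%) or over both diets (0.00242%). With RD the count of 4 higher was 1 without App RD mouse 1 (beside 0 lower) and 1 without App RD mouse 3 (beside 5 lower). It was 2 without WT RD mouse 3, WT HFD mouse 1, App HFD mouse 1 or App HFD mouse 3. With HFD the count of 3 was 7 without WT HFD mouse 2 and 5 without WT HFD mouse 1 or App RD mouse 3. Over both diets the count of 3 was 5 without WT HFD mouse 2 or App RD mouse 3.

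Snora34 and Snora16a were the H/ACA box genes with the smallest p for genotype. Snora34, within Kansl2, was 10.22, 10.12 and 10.11 in WT RD mice, 10.14, 10.30 and 10.003 in WT HFD mice, 10.42, 10.29 and 10.31 in App RD mice and 10.42, 10.41 and 10.48 in App HFD mice. The App groups were higher apart from 1 WT HFD mouse that reached the lower App RD mice, by 0.24 over both diets (SE 0.06, adjusted p = 0.533 in limma). Snora16a was 8.35, 8.39 and 8.28 in WT RD mice, 8.52, 8.62 and 8.54 in WT HFD mice, 8.48, 8.43 and 8.62 in App RD mice and 8.74, 8.86 and 8.76 in App HFD mice. It was lowest in WT RD and highest in App HFD mice, with the 2 other groups overlapping between them, and differed by 0.20 between genotypes (SE 0.05, adjusted p = 0.562 in limma).

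In the opposite direction App minus WT over both diets was -0.14 (SE 0.05) for Snord49a and -0.23 (SE 0.09) for Snord123, within the non-coding RNA gene Snhg18. Snord13 was lower in RD‐fed App than in RD‐fed WT mice, at -0.30 (SE 0.14), without an unadjusted p under 0.05. Snord37, within the elongation factor gene Eef2, had the largest difference in RD‐fed mice, where WT mice had 4.02, 4.02 and 3.56 and App mice 4.32, 4.26 and 4.75. These groups did not overlap and differed by 0.58 (SE 0.15, adjusted p = 0.679 in limma), but the gene was dim, and HFD‐fed mice had 4.21, 4.25 and 4.05 in WT and 4.26, 4.22 and 4.24 in App. In the same comparison Snora31 was higher in App mice by 0.37 (SE 0.15). In HFD‐fed mice the 2 lower genes with the smallest p were Snord88a, at -0.65 (SE 0.30), and Snora41, at -0.25 (SE 0.15).

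HFD‐fed App mice, which carry both factors, were compared with RD‐fed WT mice, with which the diet comparisons share animals. Here 63 of 73 snoRNA genes were higher, where 48.4% of all clusters were. An unadjusted p under 0.05 was found for 23 in the higher direction (2.53% of all clusters) and 0 in the lower (2.66%), and 0 passed the adjusted threshold (0% of all clusters). Snora16a had the smallest p, with a difference of 0.45 (SE 0.08, adjusted p = 0.422 in limma), followed by Snord35a with 0.32 (SE 0.08). When only clusters above an intensity of 100 were tested with limma, Snora16a passed the threshold, with an adjusted p of 0.0337. It was among 8 that passed of all 9878 clusters tested. The count of 23 was 11 without App HFD mouse 2.

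The interaction of genotype and diet was positive for 52 of 73 genes, where 49.9% of all clusters were. Before adjustment 2 genes passed in the positive direction (2.18% of all clusters) and 2 in the negative (2.79%), and 0 did after it (0% of all clusters), so that no snoRNA gene was shown to respond to HFD differently in App mice. The F test over the 4 groups gave 28 genes with an unadjusted p under 0.05 (5.69% of all clusters) and 0 after adjustment (0% of all clusters). Snora75 had the largest interaction, 0.76 (SE 0.30), with 4.39, 4.47 and 5.08 in WT RD mice, 4.72, 4.51 and 4.31 in WT HFD mice, 4.14, 4.09 and 4.55 in App RD mice and 4.56, 5.09 and 5.01 in App HFD mice. The App groups did not overlap while the WT groups did, in a gene near the dim end of the array. Snord70, within Nop58, had an interaction of 0.40 (SE 0.17), Snord37 one of -0.51 (SE 0.22) and Snord88c one of -0.49 (SE 0.22).

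Snora35 stood apart from the other snoRNA genes. It lies within Htr2c, the X-linked gene of a serotonin receptor that is abundant in the choroid plexus, and is an H/ACA box snoRNA of brain with no known target in ribosomal RNA. It was 6.37, 6.74 and 6.12 in WT RD mice, 6.07, 7.05 and 7.08 in WT HFD mice, 5.97, 6.62 and 7.19 in App RD mice and 6.81, 6.09 and 5.91 in App HFD mice. The 3 App RD mice alone spanned nearly the whole range, and the diet difference was -0.00 (SE 0.26).

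Ttr, the main transcript of choroid plexus epithelium, was 12.86, 13.00 and 12.17 in WT RD mice, 9.13, 13.12 and 13.28 in WT HFD mice, 9.14, 13.03 and 13.24 in App RD mice and 13.15, 10.26 and 8.67 in App HFD mice. The 4 mice with the lowest Ttr were the 4 with the lowest Snora35, at 5.91 to 6.09 against 6.12 to 7.19 in the other 8. They were also the 4 with the lowest Htr2c, at 8.17 to 8.50 against 8.54 to 9.01. The summed intensity of 11 choroid plexus genes, Ttr and Htr2c among them, was 5545 to 9796 in WT RD, 1305 to 11960 in WT HFD, 1178 to 11794 in App RD and 1132 to 10625 in App HFD mice. Averaged over both genotypes all 11 had a lower mean with HFD, but the genotypes differed. In App mice all 11 were lower with HFD, with a median of -0.48. In WT mice 9 were higher and 2 lower, with a median of 0.08. The part of these 11 genes in the level of Snora35 was not tested. Without Snora35 the remaining 72 snoRNA genes gave the same 39 with an unadjusted p under 0.05 and a median diet difference of 0.19.

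**Figure D5:**
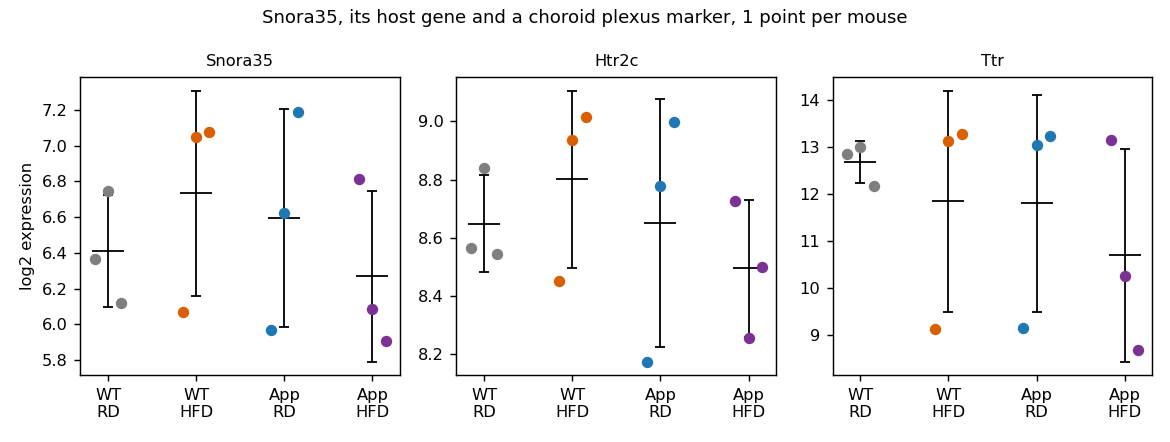
Log2 expression (y axis) of Snora35, its host gene Htr2c and the choroid plexus marker Ttr in each mouse (points, in the same order in each panel) of the 4 groups (x axis), with the group mean and SD (black, n = 3). The same 4 mice, 1 WT HFD, 1 App RD and 2 App HFD, are lowest in all 3 panels.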

How the data were processed

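Affymetrix Mouse Gene 2.0 ST arrays were used for hippocampal RNA of 12 mice. The values deposited by the authors are on a log2 scale, 1 per cluster and array, and came from Transcriptome Analysis Console. Their summarisation, normalization and build were not given in the sources used here. They were taken as deposited. All 12 arrays were assigned from their labels, each mouse being 1 replicate.

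With limma 3.58.1 (R 4.3.3; lmFit, eBayes) 1 linear model of the 4 groups was fitted over 41345 clusters, with Benjamini-Hochberg adjustment over all clusters, and tested on simulated data. The simulated shifts were all larger than any snoRNA diet difference over both genotypes. They therefore do not show how often differences of that size would be found. From the model 5 group comparisons, both main effects, the interaction and an F test were read. The number of arrays limits the precision. Members, lists and the naming rule were chosen with earlier results of these data known. Named were Snord66 and the genes most like it, Snora35, the 8 brightest, the 5 with the largest and smallest spread, and per comparison those past the threshold or else the 2 with the smallest p in each direction. Other genes were named after their values were seen, among them the 12 completely separated by diet. Host genes were taken from RefSeq spans on either strand, and their clusters by symbol. Each gene list was described by counts and medians, without a test.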

Additional observations from a re-analysis of the deposited data

How the results depend on the processing

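Every count of snoRNA genes past the adjusted threshold was 0 under quantile normalization, array centring, array weights, an intensity trend with robust spread, fits of the compared groups alone, every snoRNA cluster counted and each mouse left out. With only clusters above an intensity of 100 tested, 1 gene (Snora16a, adjusted p = 0.0337) passed for App HFD against WT RD, where fewer clusters were tested. Of all 9878 clusters in that setting 8 passed, Snora16a included. The diet count of 39 at an unadjusted p under 0.05 ran from 29 to 37 with mice left out, and the smallest adjusted p was 0.0970 with an intensity trend and 0.0692 among bright clusters. With mice left out, the C/D box median ran from 0.023 to 0.11 for the interaction (without WT HFD mouse 1 lowest), from -0.016 to 0.066 for App HFD against WT HFD and from 0.17 to 0.27 for App HFD against WT RD. The H/ACA box median ran from -0.14 to -0.00249 for App RD against WT RD and from 0.11 to 0.22 for App HFD against App RD. Replicate numbers did not pair mice, with correlations of -0.09 to 0.33 between same-numbered mice and 5 of 12 nearest to their own number. With the replicate number as a block 39 genes had an unadjusted p under 0.05 for diet and 0 were called. Leaving out Snora35 was chosen after seeing the data. The causes of these shifts were not tested.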
